A study of Homo sapiens with 4 samples.

Results

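Small nucleolar RNA (snoRNA) host genes were followed in human pancreatic cancer cells treated with cannabichromene (CBC), a cannabinoid of the Cannabis plant. The members were 10 noncoding hosts whose spliced RNA is known as a substrate of nonsense-mediated decay, namely GAS5, SNHG1, SNHG5, SNHG6, SNHG7, SNHG8, SNHG12, SNHG15, SNHG16 and ZFAS1. They were taken by symbol, mapped from the Ensembl identifiers of the deposited counts, and all 10 were found among 58233 identifiers. The rule used their symbols and no measured value, but the members were chosen with earlier results of these data known. RNA was profiled in MIA PaCa-2 and PANC-1, both established lines from human pancreatic cancers and labelled wild type, after 24 h with CBC or with the control treatment. The dose of CBC was 35 µM in MIA PaCa-2 and 30 µM in PANC-1. The controls were labelled as PBS, whereas the study's methods describe a vehicle control. There was 1 poly(A)-selected library per line and condition, 4 in all, so differences within a line have no replicate check and no test, and 95% exact (Clopper-Pearson) intervals cover counting error only.

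A snoRNA host gene is transcribed as a precursor whose introns contain the snoRNAs. After splicing, the introns are processed into snoRNAs, which guide the chemical modification of ribosomal and other RNAs, while the joined exons are exported as a separate RNA. In noncoding hosts the exons hold only short reading frames, so ribosomes stop early on them and the RNA is cleared by nonsense-mediated decay, a pathway that needs translation and is run by UPF1 and the SMG proteins. Many hosts begin with a run of pyrimidines, the 5′ terminal oligopyrimidine (TOP) start of ribosomal protein mRNAs, whose translation follows growth signals. The amount of a spliced host RNA therefore reads out transcription and decay together, and gene counts at 1 time point cannot tell these apart.

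The bases around the start of transcription are shown because a TOP start is a run of pyrimidines there. RefSeq windows on GRCh38.p14 were used for 8 members, and none is shown for SNHG6 and SNHG15. Each window below holds 15 bases before and 15 bases from the annotated start, 5′ to 3′ on the gene's own strand, and capitals mark the longest run of at least 5 C or T that comes within 5 bases of that start.
GAS5 (chr1:173869031-173869060, minus strand): tgccatcatgaattcagatgtgtttatttt
SNHG1 (chr11:62855871-62855900, minus strand): ccggggagattcgttctcaTTTTTCTactg
SNHG5 (chr6:85678719-85678748, minus strand): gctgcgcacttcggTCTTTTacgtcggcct
SNHG7 (chr9:136728170-136728199, minus strand): gCTTCCCTTCTCgtcctctgcgtgcgccgg
SNHG8 (chr4:118278747-118278776, plus strand): aaggcctcggCCTTTCacattcgggaagcg
SNHG12 (chr1:28581859-28581888, minus strand): tcgcggcttcagcgCCCTTTCTCCCCgccg
SNHG16 (chr17:76557749-76557778, plus strand): cgcaggggcggtctcgcgTTCTTTTCgagg
ZFAS1 (chr20:49278627-49278656, plus strand): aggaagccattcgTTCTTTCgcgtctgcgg

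Such a run was present in 7 of the 8 windows (87.5%), against 11992 of 35116 RefSeq windows of the same length (34.1%). GAS5 was the member without one in its window. Its RefSeq start lay 163 bases from its 5′ end in GENCODE, which the window did not cover, so a run at that other start was not examined. Among listed nonribosomal TOP mRNAs 11 of 13 windows (84.6%) held a run, among protein-coding snoRNA hosts 18 of 25 (72.0%), and among nonsense-mediated decay factors 5 of 18 (27.8%). With runs of at least 7 bases, 5 members (62.5%) and 15.4% of all windows remained, and with the run within 1 base of the start 6 of 8 members and 18.2% of all windows. These are matches of letters at an annotated start, and they were not read as functional sites. That start differed from the 5′ end of the gene in GENCODE by 0 to 1259 bases, the most for SNHG12.

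The libraries held 21742775 to 27903667 counts, so a count of 0 allows up to 0.135 CPM (counts scaled to a common library size), and the least counted member had 315 counts, SNHG8 in the PANC-1 control. Mitochondrial transcripts took 5.81% of counts in control and 3.86% in CBC-treated MIA PaCa-2, and 4.63% and 2.42% in PANC-1. Long noncoding genes as a class took a larger share after CBC, 2.18% against 1.52% in MIA PaCa-2 and 1.98% against 1.37% in PANC-1. The part of these shifts in the results on the hosts was not tested. The epithelial and ductal markers summed to 3490 and 2560 CPM in MIA PaCa-2 and to 2060 and 1220 CPM in PANC-1, EPCAM and CDH1 had no counts in the MIA PaCa-2 control, and of 11 markers of other cell types COL1A1 alone reached 1 CPM, in PANC-1.

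Without treatment the host RNAs took a larger share of the RNA in MIA PaCa-2. In such bulk libraries a lower level in each cell and fewer cells that express a gene cannot be told apart. The 10 members summed to 925 CPM in the MIA PaCa-2 control and to 658 CPM in the PANC-1 control, and each of the 10 had the higher control level in MIA PaCa-2, as did 46.7% of 12502 genes tested in both lines. The ratio of the control levels, MIA PaCa-2 to PANC-1, was smallest for SNHG16 at 1.09 and largest for SNHG12 at 2.68. This was not particular to the members. Of the other listed noncoding snoRNA hosts tested in both lines, SNHG14 alone had a lower control level in MIA PaCa-2, a ratio of 0.60. The highest ratio among them was that of DANCR, 4.37. Per exon length, on the TPM scale, which divides each count by the length of the exons before the library is scaled, GAS5 led in the MIA PaCa-2 control at 158 TPM, followed by SNHG16 at 147 and SNHG1 at 94.7. In the PANC-1 control SNHG16 led at 135 TPM, with SNHG1 at 74.9 and GAS5 at 70.5, and SNHG8 was lowest in both lines, at 10.6 and 7.91 TPM. This order depends on the length used, since with the canonical transcript in place of all merged exons SNHG16 came first in both controls and SNHG5 came in the third place.

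The members were together higher after CBC treatment in both lines, and by more in MIA PaCa-2. Their summed level went in MIA PaCa-2 from 925 to 1594 CPM, a ratio of 1.72, and from 658 to 734 CPM in PANC-1, a ratio of 1.12. GAS5 carried much of this, as without it the ratios were 1.49 and 0.966. The median log2 fold change of the 10 members was 0.67 in MIA PaCa-2 and 0.20 in PANC-1, against -0.01 and 0.02 for all genes tested and 0.04 and 0.23 for all long noncoding genes tested. For long noncoding genes of at least 10 CPM on average the medians were 0.20 (194 genes) and 0.31 (196 genes), so that in PANC-1 the members' median was no higher than that of their class.

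**Figure D1:**
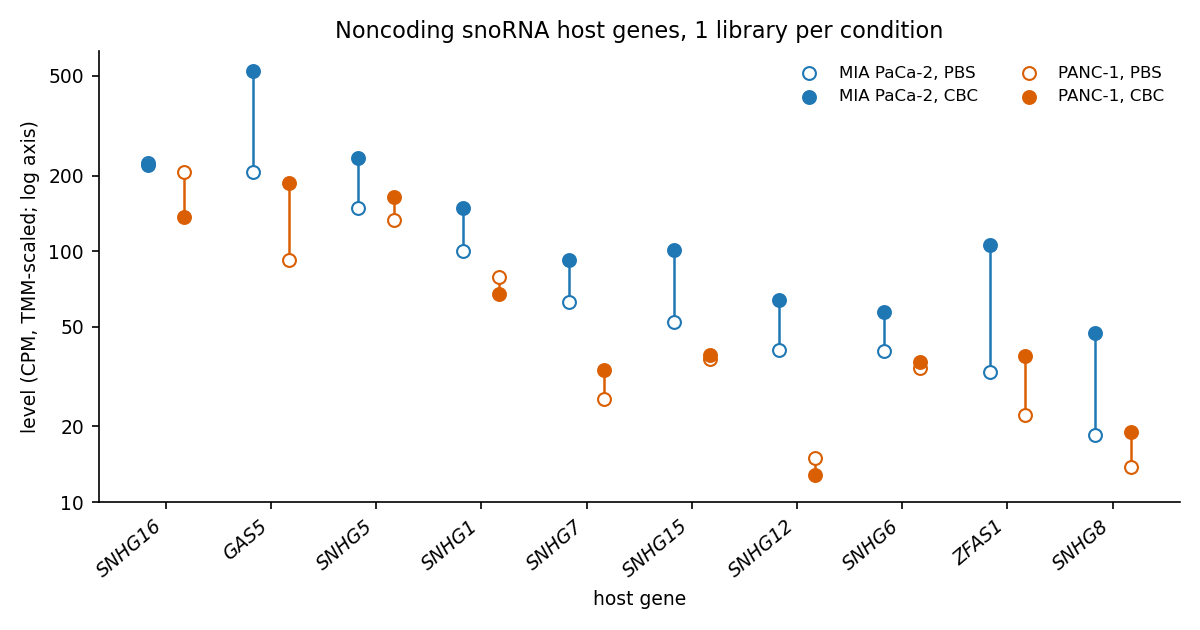
Level of each of the 10 host RNAs in the 4 libraries, in CPM on a log axis, 1 library per point. Vertical lines join the control and CBC-treated levels of a line and are not intervals. GAS5 went in MIA PaCa-2 from 206 to 522 CPM and from 92.1 to 187 CPM in PANC-1, whereas SNHG16 went from 206 to 137 CPM in PANC-1.

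GAS5, ZFAS1 and SNHG8 had the largest increases of the members in MIA PaCa-2 and also in PANC-1. GAS5 (growth arrest specific 5, ENSG00000234741, chr1:173858559-173868882, minus strand) is known to accumulate in growth-arrested cells and hosts box C/D snoRNAs. Its counts were 4580 in control and 12921 in CBC-treated MIA PaCa-2, and 2094 and 5108 in PANC-1. Each treated library was above its own control, and the treated PANC-1 level of 187 CPM lay below the MIA PaCa-2 control level of 206 CPM. The log2 fold change was 1.34 (95% counting interval 1.29 to 1.39) in MIA PaCa-2 and 1.02 (0.95 to 1.10) in PANC-1, that is 2.54-fold and 2.03-fold.

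ZFAS1 (ENSG00000177410, chr20:49278178-49299600, plus strand) runs antisense to the start of ZNFX1 and hosts the SNORD12 family. Its counts were 731 and 2621 in MIA PaCa-2 and 507 and 1043 in PANC-1, or 32.9 and 106 CPM against 22.3 and 38.2 CPM. Both treated libraries lay above both controls. It had the largest difference of the members in MIA PaCa-2, a log2 fold change of 1.69 (1.57 to 1.81) or 3.22-fold, and in PANC-1 the value was 0.77 (0.62 to 0.93) or 1.71-fold.

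SNHG8 (ENSG00000269893, chr4:118278703-118285316, plus strand), a host of an H/ACA box snoRNA, was the lowest of the members per exon length (TPM) in each of the 4 libraries. Its counts were 413 and 1168 in MIA PaCa-2 and 315 and 521 in PANC-1, or 18.6 and 47.2 CPM against 13.9 and 19.1 CPM. The log2 fold change was 1.34 (1.18 to 1.51) in MIA PaCa-2 and 0.46 (0.26 to 0.67) in PANC-1. The treated PANC-1 level was within 1 CPM of the MIA PaCa-2 control level.

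SNHG15, SNHG5, SNHG7 and SNHG6 were higher after CBC in MIA PaCa-2 by smaller amounts. SNHG15 (chr7:44983019-44986961, minus strand), a host whose RNA is short-lived, went in MIA PaCa-2 from 52.1 to 101 CPM and from 37.3 to 38.5 CPM in PANC-1. Its log2 fold change was 0.95 (0.85 to 1.05) in MIA PaCa-2 and 0.05 (-0.08 to 0.18) in PANC-1, where the counting interval included 0. SNHG5 (chr6:85650491-85678932, minus strand), which hosts the SNORD50 snoRNAs, went from 148 to 236 CPM and from 132 to 165 CPM, log2 fold changes of 0.67 (0.61 to 0.73) and 0.31 (0.25 to 0.38). Both treated libraries of SNHG5 lay above both controls.

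SNHG7 (chr9:136721366-136728184, minus strand), a host of SNORA17 snoRNAs, went in MIA PaCa-2 from 62.5 to 91.9 CPM and from 25.8 to 33.6 CPM in PANC-1. Its log2 fold changes, 0.55 (0.46 to 0.65) and 0.38 (0.23 to 0.53), were the closest between the lines of all members. SNHG6, a host of SNORD87, went from 39.8 to 57.3 CPM and from 34.1 to 36.3 CPM, with log2 fold changes of 0.52 (0.40 to 0.65) and 0.09 (-0.05 to 0.23).

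SNHG1, SNHG12 and SNHG16 were the members that were lower after CBC in PANC-1 beyond counting error. SNHG1 (ENSG00000255717, chr11:62851978-62855953, minus strand), the host of SNORD22 and several neighbours, is a host of many box C/D snoRNAs. It went in MIA PaCa-2 from 99.9 to 149 CPM and from 78.9 to 67.2 CPM in PANC-1. The log2 fold changes had opposite signs, 0.58 (0.50 to 0.66) and -0.23 (-0.32 to -0.14). SNHG12 (ENSG00000197989, chr1:28578538-28583132, minus strand), whose introns hold H/ACA snoRNAs and SNORD99, had 897 and 1580 counts in MIA PaCa-2 and 342 and 350 counts in the deeper PANC-1 libraries, log2 fold changes of 0.66 (0.54 to 0.78) and -0.23 (-0.45 to -0.01). Its upper bound in PANC-1 was near 0, and with library totals as the scale the PANC-1 value was -0.16 (-0.38 to 0.06), an interval that included 0.

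SNHG16 (ENSG00000163597, chr17:76557727-76670985, plus strand), the host of the SNORD1 snoRNAs, stood apart from the other members. Its counts were 4989 and 5441 in MIA PaCa-2 and 4690 and 3730 in PANC-1, or 224 and 220 CPM against 206 and 137 CPM. The log2 fold change in MIA PaCa-2 was -0.03 (-0.08 to 0.03), within counting error of 0 and of the other sign, 0.04, when libraries were scaled by their totals alone. In PANC-1 it was -0.60 (-0.66 to -0.53). SNHG16 was the lowest of the 10 in both lines.

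The members were set against a log2 fold change of 1 beside all genes that reached 1 CPM in either library of a line. In MIA PaCa-2 3 of 10 members were above 1 (GAS5, SNHG8 and ZFAS1), where 11.5% of 14001 genes tested were, and 16.7% of the long noncoding genes. In PANC-1 1 of 10 was above 1 (GAS5), where 7.71% of 14091 genes and 15.7% of the long noncoding genes were. No member was below -1 in either line, where 8.97% and 7.03% of genes were. By the counting interval alone, 9 members were above 0 in MIA PaCa-2, where 37.3% of genes were, and 5 in PANC-1, where 37.3% were as well. The interval was below 0 for 3 members in PANC-1, where 35.9% of genes were, so in PANC-1 the members' share in this direction was near that of all genes. The value was above 0 for 9 members in MIA PaCa-2 (49.1% of genes), for 7 in PANC-1 (51.4%) and for the same 7 in both (34.8%). The counting interval was above 0 in both lines for 5 members (23.2% of genes), and GAS5 was the 1 member above 1 in both (3.33%). SNHG1 and SNHG12, 2 of 10, lay above 0 in MIA PaCa-2 and below 0 in PANC-1 by their intervals, where 5.99% of genes did, and with library totals SNHG1 alone did.

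The members differed between the lines in the same direction. The log2 fold change was larger in MIA PaCa-2 than in PANC-1 for 10 of 10 members, where it was for 49.2% of genes, and the counting interval of that difference was wholly above 0 for 9 of 10, where it was for 31.7%. SNHG7 was the exception, with a difference of 0.17 (-0.0045 to 0.35). The difference was 0.32 (0.23 to 0.41) for GAS5 and 0.36 (0.26 to 0.45) for SNHG5. It was 0.91 (0.72 to 1.11) for ZFAS1, 0.90 (0.74 to 1.07) for SNHG15, 0.89 (0.65 to 1.14) for SNHG12 and 0.88 (0.63 to 1.14) for SNHG8. These intervals cover counting error and not the spread between cultures, and line and dose cannot be told apart. The direction was shared in part by related lists. Of the other noncoding hosts tested in both lines, SNHG4, SNHG14, SNHG26, SNHG29 and DANCR had the larger value in PANC-1, the rest in MIA PaCa-2. The proteins that bind and assemble snoRNAs had medians of -0.01 in MIA PaCa-2 and -0.37 in PANC-1. The ratio of levels between the lines, MIA PaCa-2 to PANC-1, was 2.24 in control and 2.79 after CBC for GAS5, and 2.68 and 4.99 for SNHG12.

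**Figure D2:**
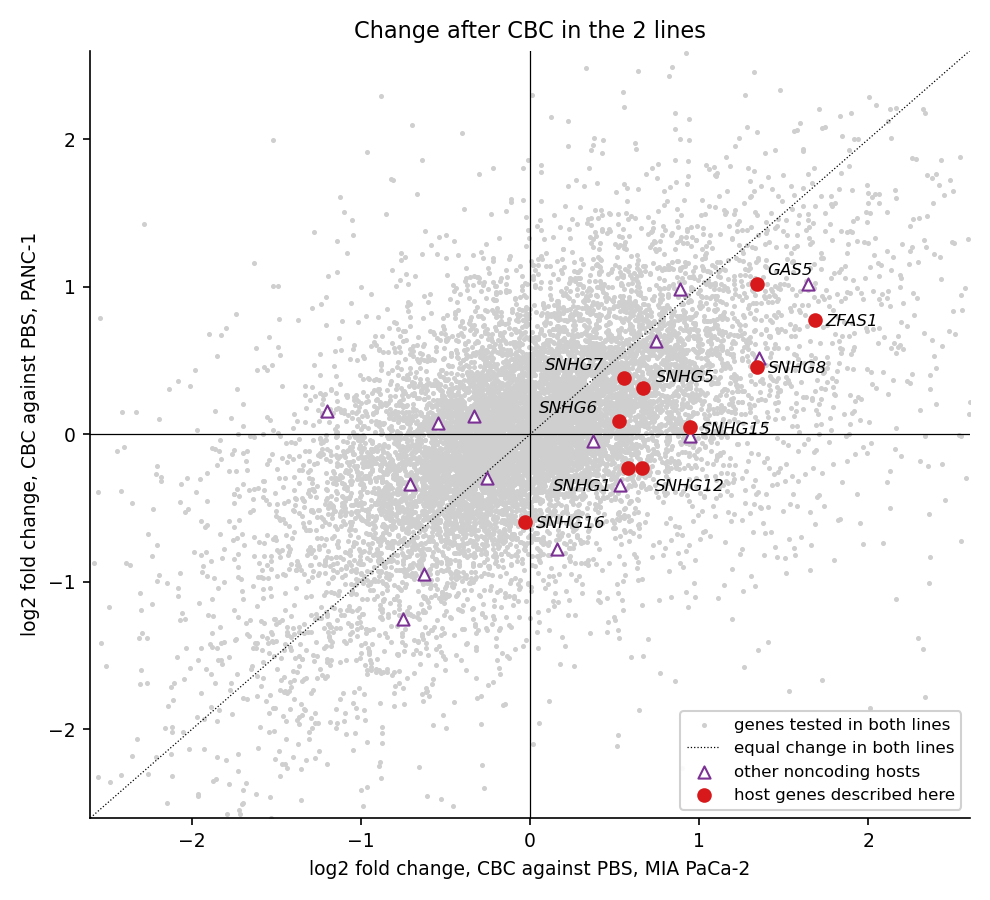
Log2 fold change (CBC against control) in PANC-1 against MIA PaCa-2 for the 10 members (red), over the genes tested in both lines (grey). Open triangles are the other noncoding hosts, no intervals are drawn, and 259 of 12502 genes lie outside the plotted range. All 10 members lie on the MIA PaCa-2 side of the diagonal, with SNHG1 and SNHG12 of opposite sign in the 2 lines.

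Over both lines together, with the line as a block and the 2 lines as the only replication, GAS5 rose after CBC. Its log2 fold change was 1.19 (SE 0.20) with an adjusted p of 0.0213 in edgeR's quasi-likelihood test over 16381 genes, and it was higher in 2 of 2 lines. It was the 1 member of 10 called, where 2.26% of genes were called higher and 2.45% lower. ZFAS1 had a larger log2 fold change, 1.24 (SE 0.29), and missed the threshold in the edgeR test with an adjusted p of 0.0535. SNHG8 followed at 0.91 (SE 0.31, edgeR adjusted p of 0.144) and SNHG5 at 0.50 (SE 0.20, edgeR adjusted p of 0.216). The other 6 members had edgeR adjusted p-values of 0.269 to 0.742, and 4 of 10 members had an unadjusted p under 0.05, where 10.6% of genes were higher at that level. The fit had 1 residual degree of freedom, so each SE and p-value also draws on the variance of other genes. GAS5 was not called without the line as a block.

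Counts of snoRNA genes inside the hosts were set beside those of the host genes. Host counts are not of spliced RNA alone, since merged annotated exons covered the whole span of SNHG1, SNHG8 and SNHG15. For SNHG12 they covered 4266 of 4595 bases. Reads of unspliced RNA may thus be among the host counts, and their part was not tested. The annotation placed 26 snoRNA genes within the members on the same strand, of which 4 had any count: SNORD12B and SNORD12C in ZFAS1, SNORD99 in SNHG12 and SNORD1B in SNHG16. The others had 0 counts in all 4 libraries, and each shared 69 to 137 annotated exon bases with its host. Reads over shared bases may have been assigned to neither gene, so these 0 counts do not show that the RNA was absent. The reason for them was not tested. The 4 counted genes are box C/D snoRNAs, a class that guides methylation of the ribose. The 3 with most counts are shown with the C box (TGATGA) and D box (CTGA) in capitals where these letters were found.
SNORD12B (chr20:49280319-49280409, plus strand): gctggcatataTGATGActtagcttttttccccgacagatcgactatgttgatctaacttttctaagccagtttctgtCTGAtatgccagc
SNORD12C (chr20:49278940-49279028, plus strand): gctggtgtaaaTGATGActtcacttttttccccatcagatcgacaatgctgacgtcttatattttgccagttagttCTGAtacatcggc
SNORD99 (chr1:28578749-28578822, minus strand): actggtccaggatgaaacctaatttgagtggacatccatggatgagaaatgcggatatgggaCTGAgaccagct

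SNORD12B had 54 counts in control and 36 in CBC-treated MIA PaCa-2 and 29 and 19 in PANC-1. Of the counts of SNORD12B and ZFAS1 together, SNORD12B thus took 6.88% (exact 95% interval 5.21 to 8.88) and then 1.35% (0.951 to 1.87) in MIA PaCa-2, and 5.41% (3.65 to 7.68) and then 1.79% (1.08 to 2.78) in PANC-1. The intervals did not overlap in either line. SNORD12C had 33 and 21 counts in MIA PaCa-2 and 9 and 9 in PANC-1. Its share went from 4.32% (2.99 to 6.01) to 0.795% (0.493 to 1.21) in MIA PaCa-2, and in PANC-1 from 1.74% (0.801 to 3.29) to 0.856% (0.392 to 1.62), where the intervals overlapped. ZFAS1 counts were thus higher after CBC in both lines, and the counts of these snoRNA genes were not.

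SNORD99 had 47 and 20 counts in MIA PaCa-2 and 6 and 8 in PANC-1. Its share of the counts of SNHG12 and itself was 4.98% (3.68 to 6.57) and then 1.25% (0.765 to 1.92) in MIA PaCa-2, and 1.72% (0.635 to 3.71) and then 2.23% (0.970 to 4.36) in PANC-1. SNORD1B had 4 to 7 counts in each library, too few to show a difference. Summed, the snoRNA genes inside members went in MIA PaCa-2 from 141 to 81 counts, a log2 ratio of -0.95 (-1.37 to -0.55) after scaling, and from 51 to 42 in PANC-1, -0.55 (-1.17 to 0.07). Their 3 hosts summed to 6617 and 9642 counts in MIA PaCa-2, a log2 ratio of 0.39 (0.34 to 0.44), and to 5539 and 5123 in PANC-1, -0.38 (-0.43 to -0.32). The sums of hosts and of snoRNA genes thus had opposite signs in MIA PaCa-2 and the same sign in PANC-1. In PANC-1 the interval of the snoRNA sum held the value of the hosts. SNHG16 held most host counts in the controls, 4989 of 6617 in MIA PaCa-2 and 4690 of 5539 in PANC-1. The lower host sum in PANC-1 was thus that of SNHG16, whose SNORD1B had few counts. ZFAS1 went there from 507 to 1043 counts, while SNORD12B went from 29 to 19 and SNORD12C stayed at 9. The other 964 snoRNA genes summed to 2991 and 3233 counts (-0.04, -0.11 to 0.03) and to 2228 and 2494 (-0.10, -0.19 to -0.02). Poly(A) selection leaves few mature snoRNAs in a library, 88 bases of SNORD12B lie in an annotated ZFAS1 exon, and which RNA these reads came from was not tested.

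**Figure D3:**
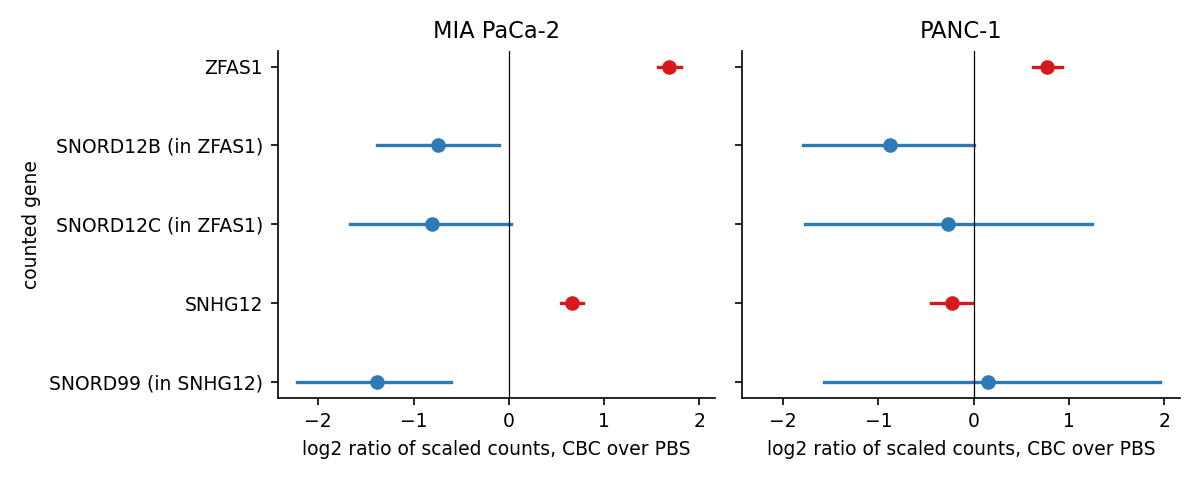
Log2 ratio (CBC against control) of counts with 95% counting intervals for the 3 snoRNA genes with most counts (blue) and their hosts (red), by line. In MIA PaCa-2 the 3 snoRNA points lie below 0, the interval of SNORD12C reaching just past it, while ZFAS1 and SNHG12 lie above it, and in PANC-1 all 3 snoRNA intervals include 0.

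Other noncoding snoRNA hosts had medians near 0. Of 20 listed, 16 were tested in each line, with a median of -0.05 in MIA PaCa-2 and 0.04 in PANC-1 on the log2 scale. In each line 2 were above 1 and 1 below -1. SNHG29 and SNHG32 were called higher over both lines, 2 of the 18 tested. SNHG29 rose from 352 to 651 CPM in MIA PaCa-2 and from 129 to 255 CPM in PANC-1, with a log2 fold change of 0.94 (SE 0.18, edgeR adjusted p of 0.0307) over both. SNHG32 rose from 76.2 to 238 CPM and from 58.6 to 119 CPM, with 1.34 (SE 0.24, edgeR adjusted p of 0.0252).

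DANCR, a noncoding host known for holding back differentiation, went in MIA PaCa-2 from 70.5 to 30.6 CPM and from 16.1 to 18.0 CPM in PANC-1, log2 fold changes of -1.20 and 0.16. SNHG10 was lower in both, -0.75 and -1.25, as were SNHG19 (-0.63 and -0.95), SNHG4 (-0.71 and -0.34) and SNHG3 (-0.25 and -0.30). EPB41L4A-AS1 was higher in both, 1.35 and 0.52, as was SNHG11, 0.75 and 0.63. The lines differed in sign beyond counting error for SNHG20 (0.53 and -0.35) and SNHG14 (-0.33 and 0.13). Values of opposite sign were also seen for SNHG17 (0.94 and -0.01), SNHG30 (0.16 and -0.78), SNHG9 (0.37 and -0.04) and SNHG26 (-0.55 and 0.08). For each of these the counting interval included 0 in 1 or both lines. SNHG25 was tested in MIA PaCa-2 alone (-0.50) and SNHG28 in PANC-1 alone (1.73, from 0.528 to 1.94 CPM). No host of this list other than SNHG29 and SNHG32 was called over both lines.

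Protein-coding hosts, which carry snoRNAs in the introns of translated mRNAs, were nearly level. For the 33 listed the median was 0.01 in MIA PaCa-2 and 0.07 in PANC-1 on the log2 scale, and none was past 1 in either direction. Over both lines edgeR called 0 of 33, with 4 at an unadjusted p under 0.05, and DESeq2 called 1 lower, HSPA8. EEF1B2, an elongation factor, had 0.01 and -0.02, and EIF4A2, a translation initiation helicase, -0.07 and 0.10. NCL, GNL3 and NOP56, whose proteins work in the nucleolus, had -0.18, 0.18 and -0.16 in MIA PaCa-2 and -0.76, -0.69 and -0.90 in PANC-1. TAF1D, a factor of RNA polymerase I in the same compartment, had 0.75 and 0.22. The extremes were TAF1D at 0.75 and HSPA8 at -0.51 in MIA PaCa-2 and RPL12 at 0.33 and NOP56 in PANC-1.

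Nonribosomal TOP mRNAs, which have the pyrimidine start of the hosts but are translated in full, also had medians near 0. The medians of the 19 tested were -0.10 and -0.02, with none past 1. Over both lines 0 were called by edgeR, with 2 at an unadjusted p under 0.05, and 0 by DESeq2. EEF1A1 had -0.08 and 0.27, PABPC1, the poly(A)-binding protein, -0.40 and 0.44, and NPM1 -0.10 and -0.17, the last with processed copies elsewhere in the genome that could share its reads. The highest and lowest were EEF2 (0.46) and NAP1L1 (-0.50) in MIA PaCa-2 and PABPC1 and HNRNPA1 (-0.50) in PANC-1.

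The proteins that bind and assemble snoRNAs were nearly level in MIA PaCa-2, with a median of -0.01 over 16, and lower in PANC-1, with a median of -0.37. By the counting interval 13 of 16 were below 0 in PANC-1 and 8 of 16 in MIA PaCa-2, where 35.9% and 39.1% of genes were. FBL, the methyltransferase of box C/D particles, had -0.28 and -0.38, and its partners NOP56 and NOP58 had -0.16 and 0.37 in MIA PaCa-2 and -0.90 and -0.85 in PANC-1. DKC1, the pseudouridine synthase of H/ACA particles, had -0.33 and -0.24. NAF1 was highest in MIA PaCa-2 (0.65) and NOP10 in PANC-1 (0.29). None was past 1, and over both lines 0 of 16 were called by edgeR, with 1 at an unadjusted p under 0.05, and 0 by DESeq2.

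Nonsense-mediated decay factors were not past 1 in either line. Over both lines edgeR called 0 of 22, with 3 at an unadjusted p under 0.05, and DESeq2 called 0. Their medians were 0.12 in MIA PaCa-2 and 0.03 in PANC-1. UPF1, the central helicase, had log2 fold changes of 0.09 and -0.39, UPF2 of -0.03 and -0.10, and UPF3B, which bridges to the exon junction, of 0.68 and -0.24. SMG1, the kinase of UPF1, had 0.16 and 0.26 and shares sequence with pseudogene copies, so its counts are uncertain. SMG5 and SMG6, which bind phosphorylated UPF1, had 0.65 and 0.12 in MIA PaCa-2 and 0.44 and 0.49 in PANC-1. The lowest were NCBP1 (-0.74) in MIA PaCa-2 and RBM8A (-0.51) in PANC-1.

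Protein-coding mRNAs known as decay targets were higher by far more than the members. Of 16 tested, 10 were above 1 in MIA PaCa-2 and 8 in PANC-1, with medians of 1.70 and 1.12, and edgeR called 10 of 16 higher over both lines. Many of these genes, such as ATF3, DDIT3 and SLC7A11, are also known to be transcribed under the stress factor ATF4, so the list does not report on decay alone. ATF4 rose by 1.57 and 0.95 on the log2 scale (over both 1.27, SE 0.22, edgeR adjusted p of 0.0229). GADD45B, a growth arrest gene, rose by 1.73 and 0.94 (1.34, SE 0.27, edgeR adjusted p of 0.0369).

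UPP1, which cleaves uridine, rose by 3.60 and 2.81 (over both 3.21, SE 0.26, edgeR adjusted p of 0.0037). IFRD1, whose mRNA carries an upstream reading frame, rose by 0.91 and 1.29 (1.11, SE 0.21, edgeR adjusted p of 0.0322). TBL2 had 0.78 and 0.01 and was not called (edgeR adjusted p of 0.404). The targets were thus not uniform, with MAP3K14 lowest at -0.06 and -0.99 and ATF3 highest at 5.26 and 3.87. The members and the decay targets were larger in MIA PaCa-2 by their medians. Of the targets, SLC7A11 (1.78 and 2.62), IFRD1, TNFRSF10B (1.68 and 1.80) and ATG12 (0.42 and 0.45) were larger in PANC-1. For ATG12 this was within counting error.

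**Figure D4:**
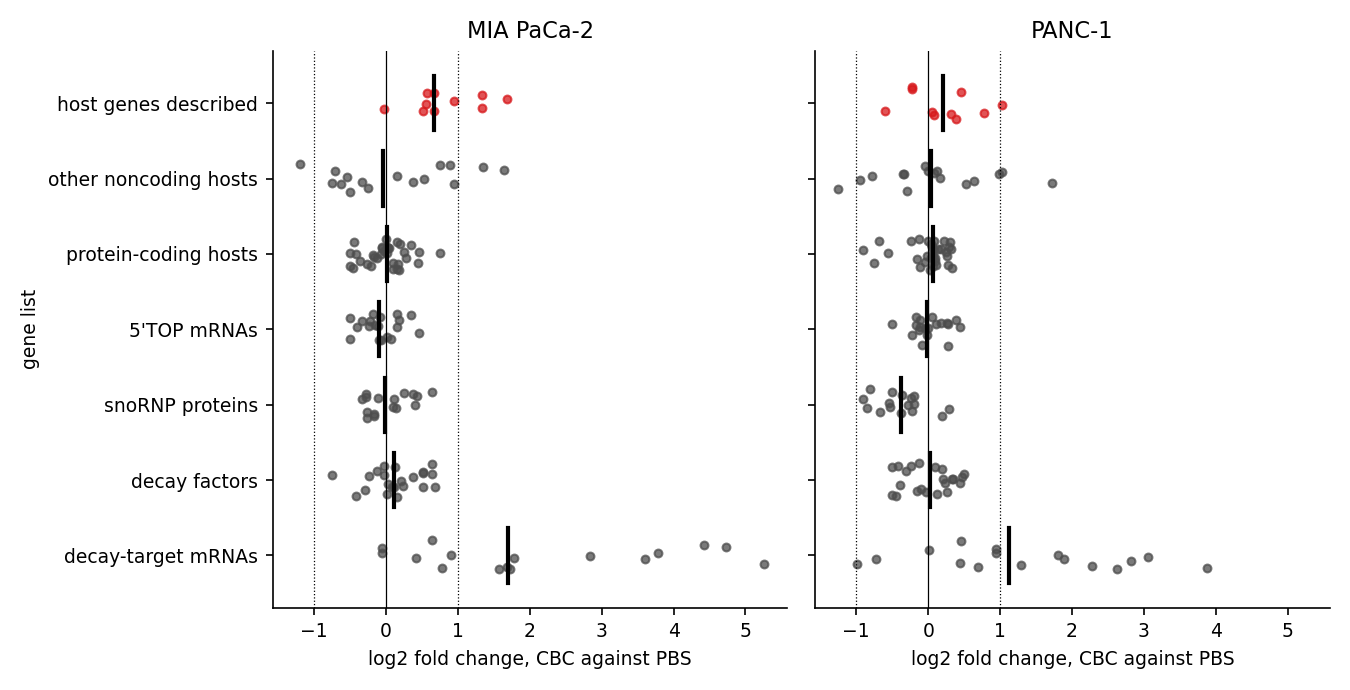
Log2 fold change (CBC against control) of each gene in the members and the 6 comparison lists, by line, 1 point per gene with the median of each list. The members' medians are 0.67 and 0.20, between the decay-target mRNAs at 1.70 and 1.12 and the TOP mRNAs at -0.10 and -0.02.

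Several members overlap or adjoin other genes, and the strand setting used for counting was not given in the sources used here, so reads over shared exon bases may have been assigned to neither gene or, without strand, could not be told apart. SLC3A2, an amino acid transporter subunit that starts within 1 kb of SNHG1 on the other strand, had 3217 and 22128 counts in MIA PaCa-2 and 3320 and 11059 in PANC-1. Its log2 fold changes of 2.63 and 1.47 stood beside 0.58 and -0.23 for SNHG1. ZNFX1, which shares 249 exon bases with ZFAS1, had 0.60 and 0.45, below the values of ZFAS1. DIPK1B, sharing 1482 bases with SNHG7, had -0.44 and -0.92, and TRNAU1AP, sharing 8 with SNHG12, had 0.48 and -0.09. PRSS12, which shares 2487 bases with SNHG8, had 4 and 16 counts in MIA PaCa-2 and 43 and 67 in PANC-1, so reads assigned to it were few beside those of SNHG8. MCMDC2, which shares 1488 bases with SNHG6, had no counts in MIA PaCa-2 and 38 and 53 in PANC-1.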

How the data were processed

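The authors trimmed reads with cutadapt 2.7, aligned them with STAR to GRCh38 and counted reads per gene with HTSeq, as named in the submitters' processing notes and the study's methods; the STAR version and the counting mode and strand setting were not given in the sources used here. The authors deposited whole-number counts per Ensembl gene and a normalized signal, which equals TMM-scaled CPM. Of 58233 identifiers, 57392 matched GENCODE 44, which gave symbols, positions and exon lengths. The study's methods name an earlier gene annotation for the counting. The exon lengths behind the TPM values and the shared exon bases are therefore not those under which the reads were counted.

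Counts were scaled by TMM over the 4 libraries in edgeR 4.0.16 (R 4.3.3), and log2 fold changes used a prior count of 2, so they slightly understate changes of low genes. Genes that reached 1 CPM in either library of a line were set against a log2 fold change of 1. The test over both lines was edgeR's quasi-likelihood test with the line as a block, after edgeR's own filter on low counts, with Benjamini-Hochberg adjustment over 16381 genes. The 2 lines were its only replication, so its p-values do not cover the spread between cultures of a line. With 1 residual degree of freedom, edgeR moderates each gene's variance toward that of other genes. The SE and p-value of a gene are therefore partly borrowed from the others. Libraries were paired by cell line, and their deviations from the condition means correlated at 0.923 across genes. DESeq2 1.42.0, other scalings, prior counts and filters were alternatives. Scripts were tested on simulated data, and figures were drawn with matplotlib 3.10.9.

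The text names every member, every tested gene of the other noncoding hosts, a short set of genes from each of the other lists, the extremes of each list and annotated neighbours, apart from some genes that are not reported here. In naming listed genes, ATF3, DDIT3 and SLC7A11 were given as examples after their values were seen. TNFRSF10B and ATG12 were also named after their values were seen. The members and lists were chosen with earlier results of these data known. SNHG18, SNHG21 and SNHG22 were listed and did not reach 1 CPM. EEF1G, a TOP mRNA, had 1 count in CBC-treated MIA PaCa-2 and 0 in the other libraries, too few to be tested. Whether its reads were assigned elsewhere was not tested, so this does not show that its RNA was absent.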

Additional observations from a re-analysis of the deposited data

Results flagged for a closer look

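SNHG1 and SNHG12 had log2 fold changes of opposite sign in the lines, each beyond counting error on the TMM scale. With library totals the PANC-1 interval of SNHG12 was -0.38 to 0.06 and included 0, while that of SNHG1 was -0.26 to -0.07. For SNHG1 the value was 0.58 in MIA PaCa-2 and -0.23 in PANC-1, and for SNHG12 it was 0.66 and -0.23. With 1 library per condition the difference between the lines was not tested. Opposite signs of this kind, higher in MIA PaCa-2 and lower in PANC-1, occurred in 5.99% of genes tested in both lines.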

How the results depend on the processing

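The medians of the members kept their sign under the alternative scalings, prior counts and values tried, at 0.65 to 0.73 in MIA PaCa-2 and 0.17 to 0.27 in PANC-1. Without GAS5 and ZFAS1, an alternative chosen after seeing the data, they were 0.62 and 0.067. The number of members above a log2 fold change of 1 in PANC-1 was 0 with TMM within each line, where GAS5 had 0.99, and 0 when the counting interval had to lie wholly past 2-fold. With library totals the counting interval in PANC-1 was above 0 for 6 members in place of 5 and below 0 for 2 in place of 3, and SNHG15 joined the members above 1 in MIA PaCa-2, at 1.01. All 10 members had the larger value in MIA PaCa-2 under each of these scalings and prior counts.

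Over both lines, the number of members called was 1 in the edgeR fit with the line as a block. It was 0 with no replicate block, a fit in which edgeR called 0 genes at all and 354 had an unadjusted p under 0.05. It was 2 with DESeq2 (GAS5 and ZFAS1, 1371 genes called in all), 2 with library totals in edgeR and 3 with no filter on low counts (GAS5, SNHG8 and ZFAS1, 2063 genes called against 771). The adjusted p of ZFAS1 was 0.0141, 0.0454 and 0.000214 in these 3 fits, and the cause was not tested. Leaving out a library was not run, because each is the only one of its condition in its line. Of the other noncoding hosts, 2 were above 1 in PANC-1, 1 with TMM within each line, with the deposited values or with 1 CPM required in both libraries, 3 with library totals and 0 by the counting interval. Without the filter on low values, 3249 and 2537 genes were above 1 in the 2 lines against 1608 and 1087. The log2 ratios of the snoRNA sums inside members were -0.89 and -0.48 with library totals; this scaling, the member intervals with library totals, the canonical lengths and the other settings of the pyrimidine run were also chosen after seeing the data. No single snoRNA gene inside a member had more than 54 counts in a library, which limits the statements on them.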
